A study of Mus musculus with 6 samples.

Results

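The genes described here encode the machinery that carries new secretory proteins into the endoplasmic reticulum and folds, glycosylates and, where needed, destroys them. They were chosen as a fixed list of 60 gene symbols, of which 58 had a row among the 14681 genes of the authors' deposited table; Pdia3 and Stt3b had none. The list holds 3 foldases grouped under the label acinar-restricted (Pdia2, Erp27 and Fkbp11) and 57 general genes, 55 of them in the table. Whether the 3 are restricted to acinar cells was not tested here. The list and its groups were chosen with earlier results of these data known, so comparisons between them are descriptions only. Each of the 58 carried a p and an adjusted p, so a filter on low values removed none of them.

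RNA was sequenced from the dorsal pancreas of C57BL/6 mouse embryos at embryonic day 18.5, with 3 control and 3 knockout samples. The knockout embryos are called Dpy30∆P in the extraction protocol; Dpy30 is a core subunit of the complexes that methylate lysine 4 of histone H3. Neither the driver of the deletion nor the genotype of the controls is named in the labels. The table's own title names a knockout of Pdx1, a pancreas transcription factor, and not Dpy30; whether this means the deleted gene or the driver is not stated, so the table's link to the Dpy30∆P samples rests on its deposition with them. The series' design text instead speaks of single-cell sequencing, whereas the titles, the extraction protocol and the table describe RNA of whole tissue. The deposited table gives 1 mean and 1 test result per gene over all libraries, so no value per sample can be shown. Which group its fold changes are divided by is not stated. Negative deposited values are called lower below and are read as lower in the knockout, on the usual convention; all directions would turn otherwise. Dpy30 could not settle either point: in the authors' deposited table it has a mean normalized count of 29.4 and a log2 fold change of 0.0086 ± 0.22 (posterior SD; unadjusted p = 0.766). Pdx1 itself, with a mean normalized count of 52.7, was at -0.0342 ± 0.22 there (posterior SD; unadjusted p = 0.418).

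A secretory protein is recognised by the signal recognition particle as it leaves the ribosome, threaded through the Sec61 channel, trimmed by signal peptidase and given N-linked glycans by the oligosaccharyltransferase. Chaperones such as Hspa5 (BiP), lectins, prolyl isomerases and protein disulfide isomerases fold it, and chains that fail are sent back to the cytosol for degradation. The sensors Ern1 (IRE1) and Atf6 adjust the supply of this machinery to the load, in part through a promoter element, ERSE, read by ATF6 with the CCAAT-binding factor NF-Y. Pancreatic acinar cells carry an unusually heavy load, since they export digestive enzymes in bulk, and they also make foldases that most tissues lack.

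Promoter sequence shows which members carry this element, and is given because a stress sensor is known to act through it. A member without a match here may still be under the control of the sensors. RefSeq promoters (GRCm38.p6, 250 bases before to 50 after each start) were found for 46 of the 58 members. The ERSE, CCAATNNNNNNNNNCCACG on either strand, was present for 10 of the 46 members (21.7%), against 0.137% of all 27025 genes with a promoter entry. ERSE-II, which is ATTGG and CCACG parted by a single base, on either strand, was found for 2 members (4.3%, against 0.0444% of all genes), Herpud1 and Dnajb11. Both motifs contain the 5-base CCACG, which alone was found for 39 of the 46 members and 35.5% of all genes. The matched sites are printed in the direction of the gene, with the fixed bases of the motif in capitals; a site on the opposite strand reads CGTGG first.
Hspa5, chr2:34772017-34772051, plus strand: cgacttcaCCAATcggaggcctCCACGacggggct
Hsp90b1, chr10:86705630-86705664, minus strand: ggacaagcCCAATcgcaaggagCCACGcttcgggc
Hsp90b1, chr10:86705525-86705559, minus strand: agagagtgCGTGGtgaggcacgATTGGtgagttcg
Calr, chr8:84847067-84847101, minus strand: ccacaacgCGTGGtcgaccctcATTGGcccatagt
Canx, chr11:50325792-50325826, minus strand: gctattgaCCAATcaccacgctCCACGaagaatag
Pdia6, chr12:17266483-17266517, plus strand: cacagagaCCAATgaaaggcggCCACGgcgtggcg
Ero1lb, chr13:12565674-12565708, plus strand: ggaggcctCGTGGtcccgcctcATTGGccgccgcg
Creld2, chr15:88819512-88819546, plus strand: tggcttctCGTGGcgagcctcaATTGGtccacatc
Dnajc3, chr14:118937819-118937853, plus strand: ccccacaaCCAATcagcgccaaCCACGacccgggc
Syvn1, chr19:6046524-6046558, plus strand: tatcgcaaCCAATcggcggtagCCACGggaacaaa
Derl3, chr10:75893234-75893268, plus strand: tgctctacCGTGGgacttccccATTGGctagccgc
Herpud1 (ERSE-II), chr8:94386369-94386395, plus strand: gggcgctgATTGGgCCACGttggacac
Dnajb11 (ERSE-II, just past the listed start), chr16:22857844-22857870, plus strand: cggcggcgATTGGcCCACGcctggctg

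Neither element was found in the promoters listed for Pdia2 and Fkbp11; Erp27, Hyou1, Sec61a1, Atf6, Sil1, Manf, Ssr2, Ostc, Sec11c, Spcs3, Srp68 and Derl1 have no entry. Both of those foldases have a CACGTG E-box near a listed start, the palindrome that basic helix-loop-helix factors can bind. This motif was chosen after the members' values had been seen. It occurs in 7 of the 46 member promoters (15.2%) and in those of 8.09% of all genes, so it does not single them out. The E-box of Pdia2 ends 6 bases before a listed start and that of Fkbp11 lies just past one; both sites are inside the annotated span of their gene. With its flanking bases, each site also holds the 5-base CCACG of ERSE and ERSE-II on either strand, which 39 of the 46 member promoters have. The E-box is in capitals.
Pdia2, chr17:26199086-26199107, minus strand: ccaggtgcCACGTGgctgttgc
Fkbp11, chr15:98727594-98727615, minus strand: ggcttggaCACGTGgcaagcta

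Among the members, the 3 foldases labelled acinar-restricted were lower by a larger amount than any of the 55 general genes, by their estimates. In the authors' DESeq2 test, 2 of the 58 members (Pdia2 and Fkbp11) were called lower at an adjusted p under 0.05, and 0 were called higher. Over all genes with an adjusted p, 0.479% were called lower and 0.264% higher, or 0.743% in either direction. No general member was called; their smallest adjusted p was 0.15, for Hyou1. Without the adjustment, 8 members (13.8%) were lower at a p under 0.05 and 0 were higher, against 2.70% of all genes in each direction. Of the general members alone, 5 of 55 (9.1%) were lower at that unadjusted p: P4hb, Hyou1, Ssr4, Spcs2 and Sel1l.

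Because the deposited fold changes are shrunken toward 0, sizes below are reconstructed unshrunken log2 fold changes with their SE, unless a value is said to be deposited. For 8 members (Pdia5, Ero1l, Fkbp7, Fkbp14, Sec61b, Srp54a, Spcs1 and Derl3) the size moved by more than 1.5 times when the fitted prior scale was changed by 1%, so their sizes and intervals are poorly determined; no member changed sign. Pdia2 (Entrez gene 69191; chromosome 17, 26195999 to 26199134, GRCm38) encodes a protein disulfide isomerase of the pancreas. Its mean normalized count was 6618, and the authors' deposited table gives it a log2 fold change of -1.99 ± 0.31 (posterior SD), a 3.97-fold lower level, with an adjusted p of 1.42e-08. Reconstruction gave -2.08 ± 0.31 (SE; 95% interval -2.68 to -1.48). Pdia2 was thus lower by more than 2-fold at both ends of its interval, which holds for no other member.

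Fkbp11 (Entrez gene 66120; chromosome 15, 98724368 to 98728198) encodes a membrane-bound prolyl isomerase of secretory cells. It had a mean normalized count of 759.6 and a reconstructed value of -1.85 ± 0.45 (95% interval -2.73 to -0.98; adjusted p = 0.00779 in the authors' deposited table). Erp27 (Entrez gene 69187; chromosome 6, 136907314 to 136922461) encodes a redox-inactive relative of the disulfide isomerases that binds unfolded chains and partner enzymes. Its mean normalized count was 662.0 and its reconstructed value -1.80 ± 0.54 (95% interval -2.85 to -0.75), and it was not called (adjusted p = 0.0753 in the authors' deposited table). The 3 estimates lay within 0.28 of each other, less than the SE of Fkbp11 or of Erp27. Their median was -1.85, a 3.61-fold lower level.

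**Figure D1:**
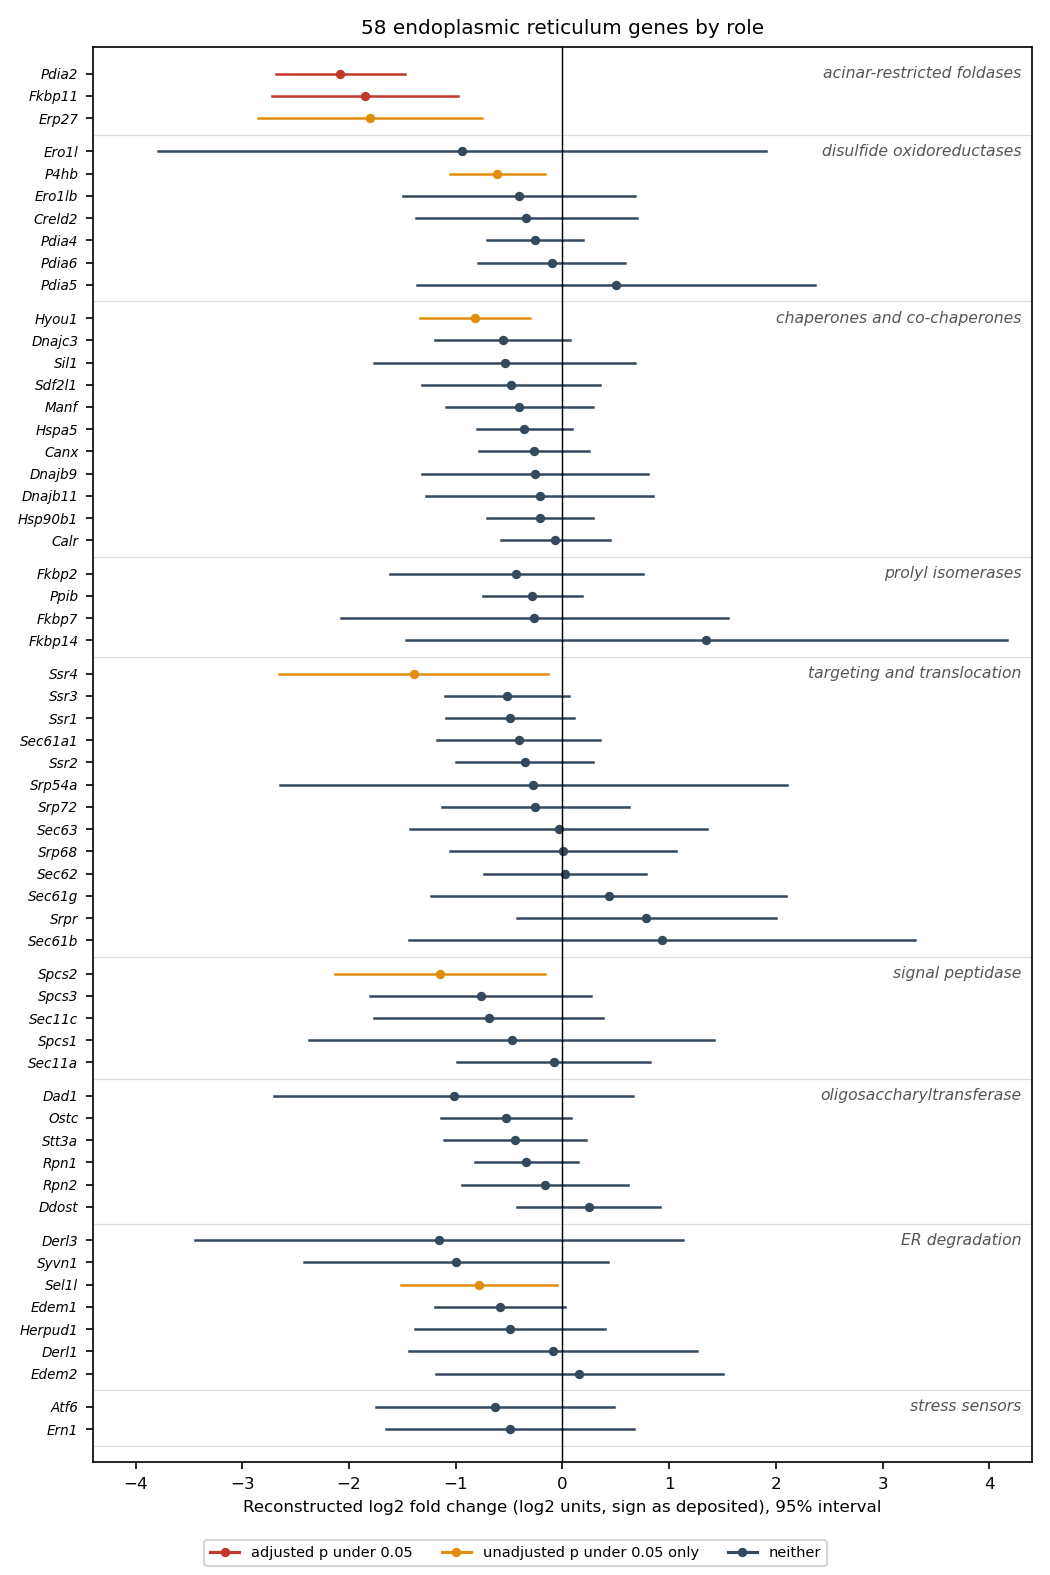
Reconstructed log2 fold changes (x axis, log2 units) of the 58 members, grouped by role on the y axis; points are estimates, lines 95% intervals, and colours give the authors' p. On the deposited scaling the 3 foldases labelled acinar-restricted lie between -2.08 and -1.80. The 55 general members have a median of -0.36 and wide intervals where counts are low.

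The acinar digestive enzymes, the main cargo of this machinery in the pancreas, were lower by a similar amount to the foldases. Of 22 enzymes listed, 20 were in the table, 13 were called lower in the authors' test and 0 higher. Clps, the lipase cofactor colipase, was at -3.19 ± 0.27 and Cpa1, a carboxypeptidase, at -2.60 ± 0.27. The median reconstructed value of the 19 with an estimate was -1.94. Of these, 7 lay below Pdia2 and 6 above Erp27, so the foldases fell inside the range of the enzymes. The counts include Gp2 (-2.56 ± 4.22) below and Pla2g1b (-0.09 ± 1.72) above, whose SE are too large to place them. Pnlip, with a mean count of 7.23 and a deposited value of 0.01, had no usable estimate. None of the 55 general members had an estimate as low as the enzyme median; the medians of enzymes and general members differed by -1.59, and those of foldases and general members by -1.50. These differences between lists were not tested, since values per library would be needed. Transcription factors of the acinar cell had no such shift: the 6 listed (Ptf1a, Rbpjl, Nr5a2, Bhlha15, Gata4 and Xbp1) had a median of 0.08, with 0 called and none below an unadjusted p of 0.05; Ptf1a, the acinar master regulator, was at 0.34 ± 0.93. In a whole organ, fewer acinar cells and less of these RNAs per acinar cell cannot be told apart.

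On the deposited scaling the general machinery leaned lower as a group, by a small amount. It leaned higher relative to pan-epithelial genes (median 0.28). That scaling rests on the median of 13 markers, whose quartiles were -1.54 and -0.29. The median is the value of Cldn3, -0.63 ± 0.67, and the lowest marker, Cldn7, was at -4.06 ± 2.88 with a mean count of 28.9. The markers with a mean count of at least 1000, Krt18, Cdh1, Krt8 and Spint2, were at -1.23, -0.49, -0.36 and -0.05. How far the shift depends on the markers taken was not tested. On the deposited scaling, 46 of the 55 general members had an estimate below 0 and 9 above, with a median of -0.36 (1.28-fold lower). The size of this median depends on the prior scale of the reconstruction and was -0.15 at a larger and -0.58 at a smaller scale, both of which returned the deposited p of few members. All genes with a p were nearly even, with 45.2% below 0; among the 5765 with a p and a mean count of at least 100, 51.1% were below 0, and the median was -0.02. The abundant members were the most uniform in sign on the deposited scaling. All 16 general members with a mean count of at least 1000 were below 0 there, as was Pdia2, against 45.1% of all 408 genes with a p at that abundance, whose median was 0.07. Relative to pan-epithelial genes, only Hyou1 (-0.18) and Sel1l (-0.15) of these 16 stayed below 0. The estimates of 13 general members were more than 1.5-fold lower; apart from the 5 named above, their 95% intervals held 0.

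**Figure D2:**
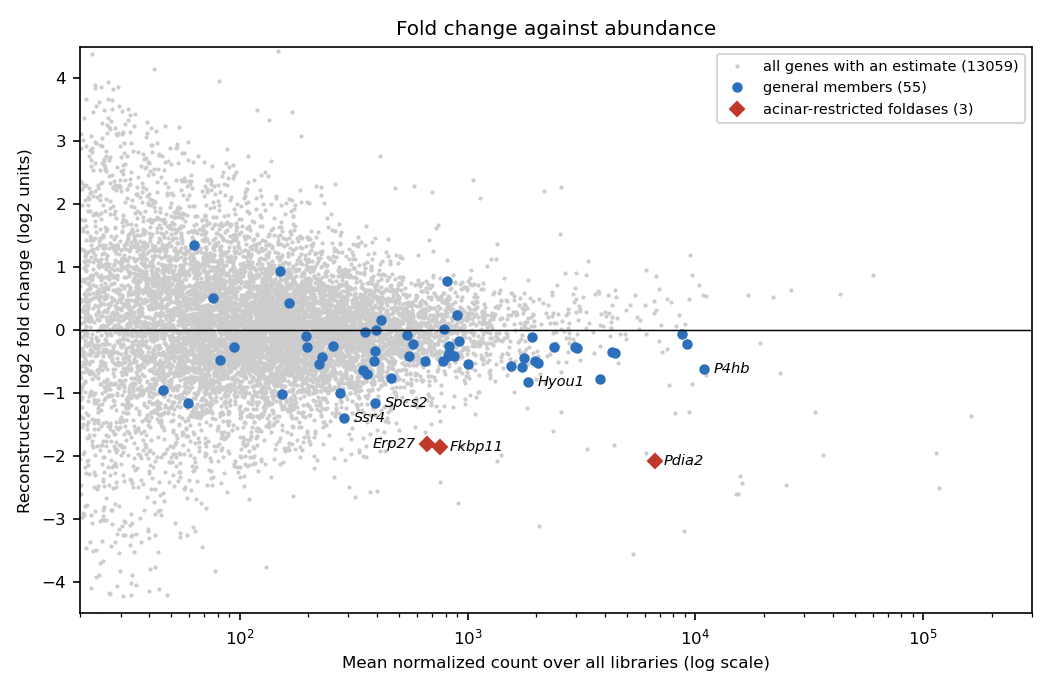
Reconstructed log2 fold change (y axis, log2 units) against mean normalized count over all libraries (x axis, log scale) for the 3 foldases, the 55 general members and, in grey, the genes with an estimate that fall inside the axes. On the deposited scaling, general members sit just below 0 at high counts and scatter to both sides at low counts, while Pdia2 lies apart at a count of 6618 and -2.08.

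Markers of several other cell types were shifted in this contrast, mostly without calls. Pan-epithelial genes had a median of -0.63 with 12 of 13 below 0, which is lower than the median of the general members; Krt18, an epithelial keratin, was called lower at -1.23 ± 0.28. Mesenchyme genes had a median of 0.53 with 9 of 10 above 0, and pan-endocrine genes a median of -2.63 with 7 of 7 estimates below 0; Col3a1 was at 0.63 ± 0.21 and Chga at -2.74 ± 0.55. All of the liver (6 of 6), erythroid (5 of 5) and leukocyte (6 of 6) markers with a p were above 0, of which 1, the erythroid factor Gata1, was called higher. Endothelial genes had a median of 0.04, with 3 of 6 below 0 and 0 called. Of 6 plasma cell genes, another cell type rich in this machinery, 2 were in the table, with mean counts of 4.80 and 23.7. The part of cell composition in the members' values was not tested. Fold changes were also taken relative to the median of the pan-epithelial genes, with p-values computed here from the shifted estimates and their SE. Pdia2 was then at -1.45 and still called lower (adjusted p = 0.000872). Fkbp11 was at -1.22 and no longer called (adjusted p = 0.206). Over all genes 19 were called lower and 127 higher, against 58 and 32 on the deposited scaling.

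Disulfide bond enzymes other than Pdia2 were close to the general median, at -0.34 (0.29 relative to pan-epithelial genes). P4hb, the archetypal protein disulfide isomerase, had the highest mean normalized count of all members (10906) and a value of -0.61 ± 0.23 (95% interval -1.06 to -0.17; unadjusted p = 0.00711, adjusted p = 0.354 in the authors' deposited table). Pdia4 was at -0.26 ± 0.23 and Pdia6, which also acts on the stress sensors, at -0.10 ± 0.35. Ero1lb, the pancreatic oxidase that recharges disulfide isomerases, was at -0.41 ± 0.55, and Creld2, a stress-induced cysteine-rich protein, at -0.34 ± 0.53. Ero1l and Pdia5 had mean counts of 45.8 and 76.5, and SE of 1.45 and 0.95, too large to place them. The intervals of Pdia2 and P4hb did not meet, although both enzymes share the same fold and chemistry; the difference itself was not tested.

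All 11 chaperones and co-chaperones were below 0, with a median of -0.36 (0.28 relative to pan-epithelial genes) and 0 called. Hyou1, the large chaperone that exchanges nucleotide on Hspa5, was lowest at -0.82 ± 0.26 (95% interval -1.33 to -0.30; unadjusted p = 0.00186, adjusted p = 0.150 in the authors' deposited table). Hspa5 itself was at -0.36 ± 0.23 (95% interval -0.80 to 0.09), and Dnajc3, a J-domain co-chaperone that also restrains the kinase PERK, at -0.56 ± 0.32. Sdf2l1 at -0.48, Manf at -0.40, Dnajb9 at -0.26, Dnajb11 at -0.21 and Sil1 at -0.54 complete the Hspa5 system, whose 8 members had a median of -0.44. The abundant chaperones varied, with Hyou1 and Dnajc3 furthest from 0 and others near it. Hsp90b1 (GRP94) was at -0.21 ± 0.25 with a mean count of 9195, and the lectins Calr and Canx, which hold glycoproteins while they fold, were at -0.07 ± 0.26 and -0.27 ± 0.26. At this precision a 2-fold fall of Hspa5, Hsp90b1, Calr or Canx would have lain outside their 95% intervals.

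The general prolyl isomerases had a median of -0.27 (0.36 relative to pan-epithelial genes). Ppib (cyclophilin B), the abundant one with a mean count of 3027, was at -0.28 ± 0.24 (95% interval -0.74 to 0.18), and Fkbp2 at -0.43 ± 0.61. The collagen-associated Fkbp7 and Fkbp14 had mean counts of 94.2 and 62.9 and values of -0.26 ± 0.93 and 1.35 ± 1.44. The size of Fkbp14 cannot be read, since a prior scale 1% smaller or larger gave 7.47 or 0.75. The interval of Fkbp11, which ends at -0.98, did not meet that of Ppib, while those of the other 3 isomerases overlapped it.

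Targeting and translocation genes had a median of -0.26 (0.38 relative to pan-epithelial genes) and varied by complex. The 4 subunits of the translocon-associated protein complex, which helps selected signal sequences open the channel, were all below 0 with a median of -0.50. Ssr4 was at -1.39 ± 0.64 (unadjusted p = 0.0309, adjusted p = 0.673 in the authors' deposited table), Ssr3 at -0.52 ± 0.30, Ssr1 at -0.49 ± 0.31 and Ssr2 at -0.36 ± 0.33. For the channel and its partners, the median of Sec61a1, Sec61b, Sec61g, Sec62 and Sec63 was 0.03, with 2 of 5 below 0. Sec61b and Sec61g, both above 0, had SE of 1.21 and 0.85, too large to place them. Sec61a1, the pore subunit, was at -0.41 ± 0.39, and Sec62, the post-translational partner, at 0.03 ± 0.39. For the signal recognition particle and its receptor, 2 of 4 were below 0 and the median was -0.13; Srp72 was at -0.26, Srp68 at 0.00 and Srpr at 0.79 ± 0.62. Whether these complexes differ was not tested.

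Reads of some members, on both sides of 0, can be shared with copies elsewhere. In the GENCODE M21 transcripts, 54.5% of the 31-base words of Sec61b, 30.2% of those of Srpr and 21.3% of those of Sec61g also occur in another annotated gene. For Srp54a, which was below 0, the share was 77.0%, nearly all with its near-identical copy Srp54b. These were the only 4 members at or above 20%. Their values are less certain, and the effect of sharing on them was not tested. Pdia5, Fkbp14, Sec62, Srp68, Ddost and Edem2, also above 0, shared 0%. All 3 foldases shared 0% of their words. Exons of 17 members overlap those of another gene, mostly on the opposite strand; the kit keeps strand, but whether the counting used it is not given in the sources used here.

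Signal peptidase and oligosaccharyltransferase, which modify the chain as it enters, were both mostly below 0 with no call. All 5 signal peptidase subunits had negative estimates, with a median of -0.69 (-0.06 relative to pan-epithelial genes). Spcs2 was at -1.15 ± 0.50 (unadjusted p = 0.0215, adjusted p = 0.588 in the authors' deposited table), Spcs3 at -0.77 ± 0.53 and Sec11c, a catalytic subunit, at -0.69 ± 0.55. The other catalytic subunit, Sec11a, was near 0 at -0.08 ± 0.46, and Spcs1 at -0.48 ± 0.97. Of the oligosaccharyltransferase, 5 of 6 subunits were below 0 and the median was -0.39 (0.24 relative to pan-epithelial genes). Ostc was at -0.53 ± 0.31, Stt3a, the catalytic subunit of the translocon-bound enzyme, at -0.45 ± 0.34, and Rpn1 at -0.34 ± 0.25. Rpn2 was at -0.17, Dad1 at -1.02 ± 0.86 and Ddost, alone above 0, at 0.25 ± 0.34.

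Genes of endoplasmic reticulum degradation had a median of -0.59 (0.05 relative to pan-epithelial genes), with 6 of 7 below 0. Sel1l, the scaffold of the HRD1 ubiquitin ligase, had a mean count of 3816. It was at -0.78 ± 0.37 (unadjusted p = 0.0343, adjusted p = 0.709 in the authors' deposited table). The partner ligase Syvn1 (HRD1) was at -0.998 ± 0.73, and Edem1, which trims mannose from misfolded glycoproteins, at -0.59 ± 0.31. Herpud1 was at -0.49, Derl1 at -0.09 and Edem2 at 0.16. Derl3, a derlin of secretory cells, had a mean count of only 59.0 and a value of -1.15 ± 1.17, so a change as large as that of the foldases was not excluded; a prior scale 1% smaller or larger gave -2.40 or -0.77. The sensors Atf6 and Ern1 were at -0.63 ± 0.57 and -0.49 ± 0.59, and neither passed the test.

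The 12 members with an ERSE or ERSE-II promoter had a median of -0.35 and ranged from -1.15 (Derl3) to -0.07 (Calr); all 12 were below 0 and 0 had an unadjusted p under 0.05. Of the 34 members with a promoter entry and neither element, 26 were below 0 and 6 had such a p; the 32 general ones among them had a median of -0.28. The difference between these classes was not tested. Outside the list, 15 other genes of the table had such an element; the 14 with an estimate had a median of -0.28, with 10 below 0 and 0 called. The foldases at -2.08 (Pdia2) and -1.85 (Fkbp11) belong to the group with neither element. The shorter elements were rare: the UPRE core TGACGTGG occurred in 0 of the 46 member promoters (0.714% of all genes) and the ATF4 element TTGCATCA in that of Herpud1 alone (1.03% of all genes), on either strand.

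**Figure D3:**
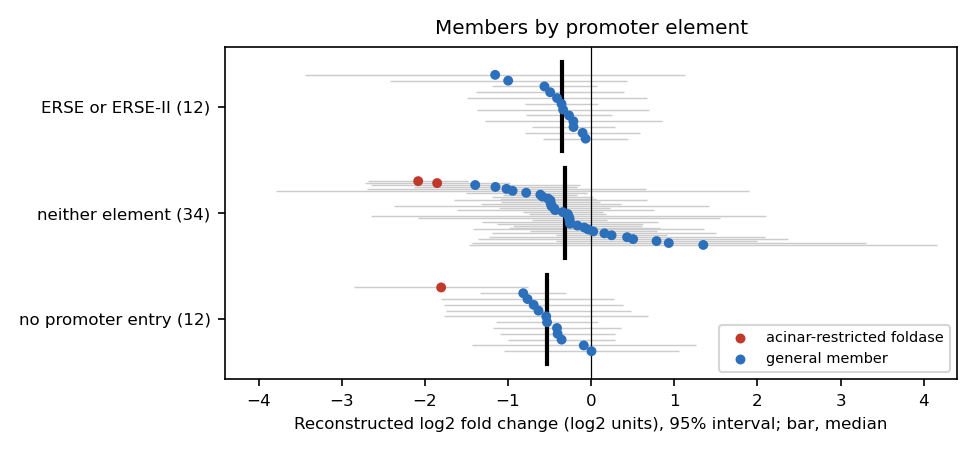
Reconstructed log2 fold changes (x axis, log2 units) of members with an ERSE or ERSE-II in the promoter, with neither element, and without a promoter entry (y axis); grey lines are 95% intervals and bars medians. The 12 members with an element lie between -1.15 and -0.07, and the foldases are in the other rows.

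Of the further genes of the pathway, which are not members, 133 were in the table, of which 132 had a p and 81 of these were below 0 (61.4%); the median of the 128 with an estimate was -0.14. Of them 1 was called lower and 0 higher, and at an unadjusted p under 0.05, 9 were lower and 1 higher. Whether they differ from the general members (83.6% below 0) was not tested. The called gene was Asns, asparagine synthetase, a target of the stress factor ATF4, at -1.49 ± 0.37 (95% interval -2.21 to -0.77; adjusted p = 0.0105 in the authors' deposited table). Wfs1, an endoplasmic reticulum membrane protein of beta cells, was at -1.72 ± 0.85, and Xbp1, the transcription factor spliced by Ern1, at 0.12 ± 0.46. The stress response effectors as a list had a median of -0.06, with 10 of 20 below 0.

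Other oxidoreductases had a median of -0.40, with 9 of 14 below 0, and included Qsox1, a sulfhydryl oxidase, at -0.96 ± 0.41 and Erp44, which retrieves unfinished proteins from the Golgi, at -0.94 ± 0.47. Other translocation and insertion genes had a median of -0.22 with 16 of 24 below 0. Tram1, a partner of the channel, was at -0.98 ± 0.36 (unadjusted p = 0.00629), and Asna1, which delivers tail-anchored proteins, was the single gene above 0 at an unadjusted p under 0.05, at 1.89 ± 0.86. Other degradation genes had a median of -0.19 and 15 of 20 below 0, with Os9, a lectin of the HRD1 complex, at -0.49 ± 0.27; Derl2 had the smallest p (unadjusted 0.0580) but no determined size. Genes that build and trim the N-glycan precursor had a median of -0.01 and were even, with 12 of 24 below 0; Alg11, a mannosyltransferase, was at -1.63 ± 0.73 and Mogs, the first trimming glucosidase, at -0.72 ± 0.47.

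Export from the endoplasmic reticulum was close to even, with 19 of 30 genes below 0 and a median of -0.07. Its lowest p belonged to cargo-handling proteins: Tmed6, a p24 family member found in pancreas, was at -1.22 ± 0.42 (unadjusted p = 0.00380, adjusted p = 0.249 in the authors' deposited table). Mcfd2, the partner of the cargo receptor Lman1, was at -0.98 ± 0.34 (unadjusted p = 0.00407, adjusted p = 0.258 in the authors' deposited table).

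**Figure D4:**
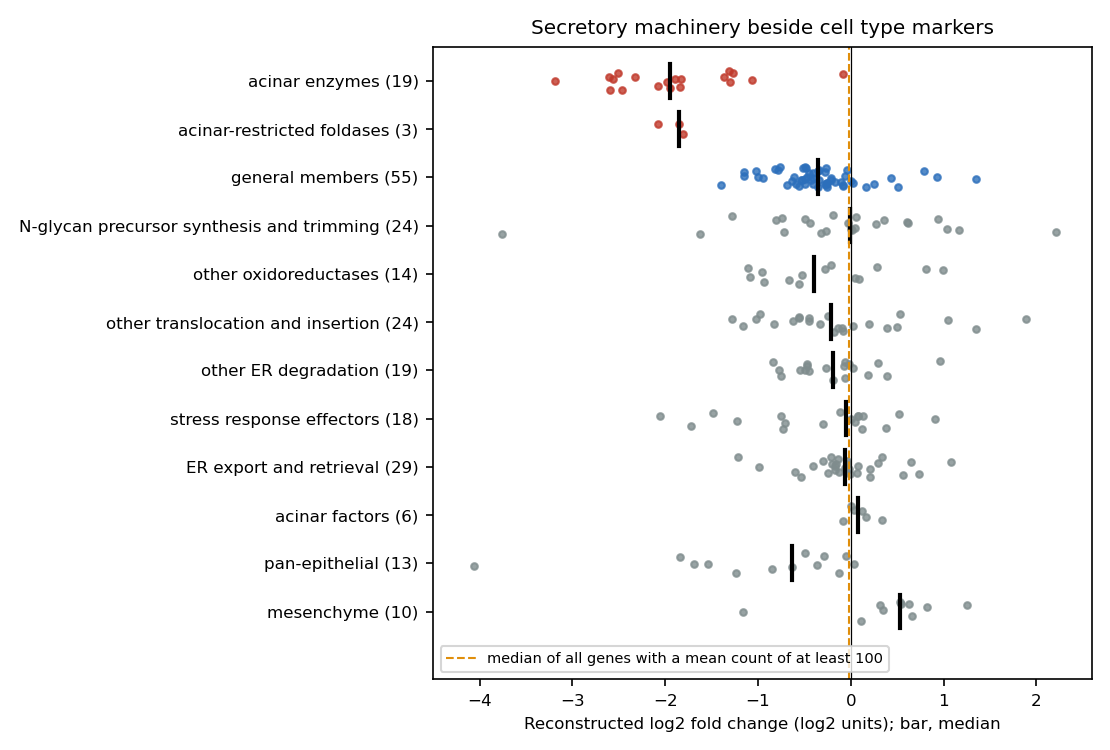
Reconstructed log2 fold changes (x axis, log2 units) of single genes in 12 lists (y axis, number of genes in brackets); bars are medians and the dashed line the median of all genes with a mean count of at least 100. On the deposited scaling, which is plotted, acinar enzymes (-1.94) and the 3 foldases (-1.85) lie together. General members (-0.36) lie between them and 0, and mesenchyme genes lie above 0 at 0.53. Relative to pan-epithelial genes, not plotted, the median was 0.28 for general members and -1.22 for the foldases.

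Abundance set the precision of these values. Per kilobase of transcript, the mean normalized count of the members ran from 10.4 (Ero1l) to 6007 (P4hb), with a median of 322 against 27.7 for all 13589 genes with a known length; lengths are medians of annotated coding transcripts, so these levels are approximate. On this scale Pdia2 (3914 per kb) ranked 3rd of the 58, after P4hb and Calr (3997 per kb); Fkbp11 (1035 per kb) ranked 9th and Erp27 (643 per kb) 17th. The SE was at most 0.37 for the 16 general members with a mean count of at least 1000, and between 0.93 and 1.45 for the 6 under 100. The 95% interval of 14 general members excluded a 2-fold fall. That of 46 excluded a fall as large as the smallest of the 3 foldase estimates, and that of the other 9 held a fall of that size. The 46 include Pdia5, Fkbp14 and Sec61b, whose intervals are poorly determined. That foldase estimate, of Erp27, has its own error, with an interval ending at -0.75, so these counts do not test a difference.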

How the data were processed

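Sample titles gave the groups. The authors used Trimmomatic, Salmon and DESeq2 with GRCm38 (mm10), per the submitters' processing notes; for versions, annotation, filters and model, nothing is given in the sources used here. The deposited table holds the mean normalized count (a signal averaged over all libraries by the authors), a shrunken log2 fold change with its posterior SD, and p-values, raw and adjusted, all deposited by the authors; the depth per library is unknown, and the summed mean count is 3663175. A p was given for 14386 of 14681 genes and an adjusted p for 12108; genes with a p that lacked the latter had a mean count of at most 8.15. No gene was tested again from counts. Adjusted p-values relative to pan-epithelial genes are not the authors' but were computed here from the reconstructed estimates and their SE. The other adjustments used the deposited p.

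Unshrunken fold changes were reconstructed with Python 3.11.15 and scipy 1.17.1, assuming a Cauchy prior and a quadratic likelihood. The fitted prior scale was 0.31. Estimates are used where their z came within 0.1 of that of the deposited p (13059 genes, 90.8%; all 58 members, within 0.023), and intervals are 95% normal intervals. On data simulated under the same assumptions for this comparison, 100% of 8255 genes were recovered within 0.05, which checks the arithmetic only.

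The members, role groups and lists were chosen with earlier results of these data known. Full values are given for the 3 foldases and the 3 members of each role group with the smallest p; of other pathway lists, the 2 with the smallest p are named, and of cell type lists 1 or 2; the other members are given by value, and Xbp1 was added afterwards. Alternatives tried were other adjustments, thresholds, scalings, prior scales and count minimums.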

Additional observations from a re-analysis of the deposited data

How the results depend on the processing

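Both calls (Pdia2 and Fkbp11) stood when p-values were adjusted over all genes with a p or over genes with a mean count of at least 100, and a threshold of 0.1 added Erp27 (3 members); 0 members were called higher under any alternative. Scaling mattered most. Relative to the median of pan-epithelial genes, which adds 0.63 to every value, 1 member was called lower (Pdia2), over all genes 19 were called lower and 127 higher, and Fkbp11 was at -1.22 (adjusted p = 0.206). The sign of 35 of the 58 members turned, but since a constant is added, this does not test single genes. The constant comes from the median of 13 markers with quartiles of -1.54 and -0.29, and that median is the value of Cldn3, which has an SE of 0.67. Its error was not carried into the p-values on this scaling. The medians became 0.22 for all members, 0.28 for general members and -1.22 for the foldases, and by role 0.29 for disulfide oxidoreductases, 0.28 for chaperones, 0.36 for prolyl isomerases, 0.38 for translocation, 0.24 for oligosaccharyltransferase, -0.06 for signal peptidase, 0.0456 for degradation and 0.0701 for sensors. Single values that turned were P4hb at 0.0212, Pdia4 at 0.37, Ero1lb at 0.22, Dnajc3 at 0.07, Hspa5 at 0.28, Ppib at 0.35, Fkbp2 at 0.20, Ssr3 at 0.11, Ssr1 at 0.14, Ostc at 0.10, Rpn1 at 0.29, Stt3a at 0.19, Edem1 at 0.0456 and Ern1 at 0.14. Sizes hang on the prior scale. At 0.8 times the fitted scale, which gave a value for 28 members and matched the p of 5, the medians were -0.58 for general members, -0.61 for translocation and -1.71 for signal peptidase. At the larger planned scale, which matched the p of 11 of 58, they were -0.17 for all members, -0.15 for general members, -0.12 for disulfide oxidoreductases, -0.20 for chaperones, -0.08 for prolyl isomerases, -0.0229 for translocation, -0.28 for signal peptidase, -0.23 for oligosaccharyltransferase, -0.24 for degradation and -0.19 for sensors. Deposited values were nearer 0 by construction (signal peptidase -0.10). With a scale 1% smaller, chosen after seeing the data, 8 members moved by over 1.5 times, and with one 1% larger 5 did; at mean counts of at least 100 these were Sec61b and Srp54a. None of these scales, nor scaling to the median of all genes, turned the direction of a result computed. Since all 58 members matched their p, dropping the match changed nothing. No paired analysis was possible because the table holds no values per library, and for the same reason no replicate could be left out.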
